A study of Mus musculus with 4 samples.

Results

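Cells of the P5 mouse telencephalon that carried C1q complement transcripts together with the macrophage genes *Mrc1* and *Pf4* were examined. Members were the barcodes with 2000 to 40000 unique molecular identifiers (UMIs, each counting 1 captured RNA molecule), at least 1000 genes and at most 10% mitochondrial UMIs, in which *C1qa*, *C1qb* and *C1qc* together had at least 10 UMIs and *Mrc1* plus *Pf4* at least 3. Members were thus chosen by their C1q, *Mrc1* and *Pf4* UMIs, and these values are given as descriptions only. The rule gave 188 members among 17623 cells that passed the quality filters and 27742 barcodes in all, or 1.07% of passing cells (95% exact Clopper-Pearson interval 0.920 to 1.23%, counting error only). The group was set up under the name border macrophages, which are the macrophages of the meninges, the perivascular spaces and the choroid plexus. Other markers bore that name out for only part of the members, so they are called *Mrc1/Pf4*-positive C1q-high cells here. The other 170 cells with at least 10 C1q UMIs and at most 2 *Mrc1* plus *Pf4* UMIs served for comparison.

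Macrophages at the borders of the brain and microglia within it both come largely from early yolk sac progenitors, and both depend on signals through the receptor *Csf1r* and make C1q. Border macrophages sit against vessels and membranes, where they take up proteins, sugars and cell debris through scavenger and lectin receptors such as the mannose receptor *Mrc1* and the hyaluronan receptor *Lyve1*. Microglia are known instead by genes such as *P2ry12*, *Tmem119* and *Sall1*, and their contacts are with neurons and synapses.

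The samples were 4 libraries from C57BL/6 mice at P5, 2 per genotype, each pooled from 3 mice. The stated input was 5000 cells per library, while the libraries held from 6107 to 7279 barcodes. Control mice were NestinCreERT2/tdTomato/Chd8+/+ and mutant mice carried the same transgenes with Chd8+/F, so that tamoxifen given at E14.5, which both genotypes received, removed 1 *Chd8* copy in cells with Cre activity. The Nestin promoter drives this Cre in neural progenitors, and the sort from the telencephalon was for tdTomato, which reports recombination at its own locus. Recombination at *Chd8* in the members was not measured. The labels call the sorted cells neuronal, while the neuron genes *Map2* and others were below their level in the remaining cells, as given with the RNA of other cell types. Replicates were separate pools. Tests across them that leave out the replicate number measure the spread between pools. That spread includes the replicate differences in software and sex-linked transcripts given below. The matrices held 79328841, 46274374, 78211984 and 50616343 UMIs in control 1, control 2, mutant 1 and mutant 2, which is the order of all values given for the 4 libraries. Members numbered 118, 16, 38 and 16, with median depths of 13422, 8902, 10798 and 11643 UMIs, and no member barcode was shared between libraries.

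Both replicate 1 matrices were written by Cell Ranger 7.0.0 and both replicate 2 matrices by 5.0.1. The replicates also differed in sex-linked transcripts. In members with at least 30 *Mrc1* plus *Pf4* UMIs, *Xist*, the RNA that coats the silenced X, stood at 0, 1699, 0 and 1735 UMIs per 1000000 (CPM), and the Y-linked *Ddx3y* at 117, 0, 68.0 and 0 CPM. Replicate 1 thus had the Y-linked transcript and no *Xist* in both genotypes, and replicate 2 the reverse. The paper's reporting summary names male mice as the source for single-cell sequencing, which the replicate 2 transcripts do not bear out. Software, sex-linked expression and replicate number cannot be told apart. Whether reads in introns were counted alike in both replicates is not given in the sources used here, and its part in the results was not tested. In passing cells with under 10 C1q UMIs, at least 1 *P2ry12* UMI was found in 7.30%, 1.05%, 7.91% and 0.866%, higher in replicate 1 of both genotypes. *Mrc1* was found in 0.436%, 0.408%, 0.322% and 0.371% of these cells and *Sall1* in 24.2%, 26.6%, 22.5% and 26.005%, neither of them higher in replicate 1 of both genotypes.

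*Mrc1* plus *Pf4* UMIs varied widely among the members. There were 72 members with 3 to 9, 22 with 10 to 29, 17 with 30 to 59 and 77 with 60 or more. A division at 30, set after the values were seen, gave 94 members above it (53, 13, 18 and 10 by library) and 94 below it (65, 3, 20 and 6, so mostly in replicate 1). Of the lower 94, 73 had no *Pf4* UMI at all. At the threshold of the rule, 17 members had exactly 3 *Mrc1* plus *Pf4* UMIs and 30 excluded cells had exactly 2, and 1 member had 10 or 11 C1q UMIs against 1 excluded cell with 8 or 9.

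**Figure D1:**
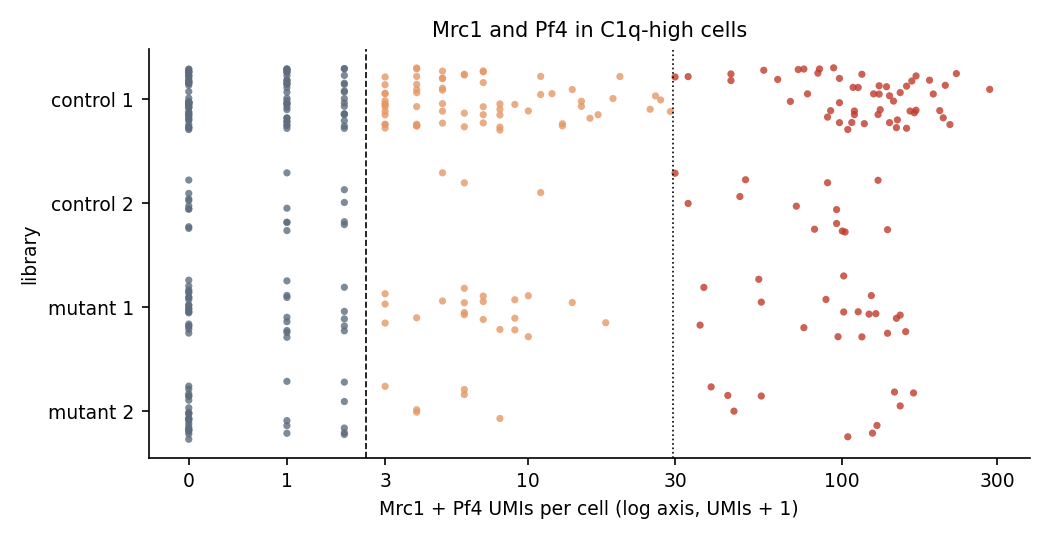
*Mrc1* plus *Pf4* UMIs of each of the 358 C1q-high cells (x axis, log scale of UMIs + 1) by library (y axis, points spread vertically at random). The dashed line marks the threshold of 3 UMIs and the dotted line the division at 30, and most cells to the right of the dotted line have 60 UMIs or more.

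Other marker genes set the 94 cells with 30 or more UMIs apart from the remaining members. UMIs of 26 border macrophage genes, *Mrc1* and *Pf4* left out, exceeded those of 15 microglia genes in 93 of the 94 members with 30 or more. The same held in 5 of the 94 members with 3 to 29 and in 1 of the 170 other C1q-high cells. In control 1, for instance, the median member with 30 or more had 203 border macrophage and 23 microglia UMIs, and the median member with 3 to 29 had 29 and 197. Over all members, 21 of the 26 border macrophage genes lay above other C1q-high cells with no overlap of the 4 libraries, where 4.13% of 9438 genes did, and 9 of 15 microglia genes lay below, where 2.08% did. By the balance within single cells, the name border macrophage fitted the upper 94 cells and not the lower 94, whose marker balance was that of the C1q-high cells outside the rule. The 2 sets are called high-*Mrc1/Pf4* and low-*Mrc1/Pf4* members below. Because the genes of these cells are those by which the members were chosen, or come from the same cells, all differences from other C1q-high cells are given as descriptions without a test.

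**Figure D2:**
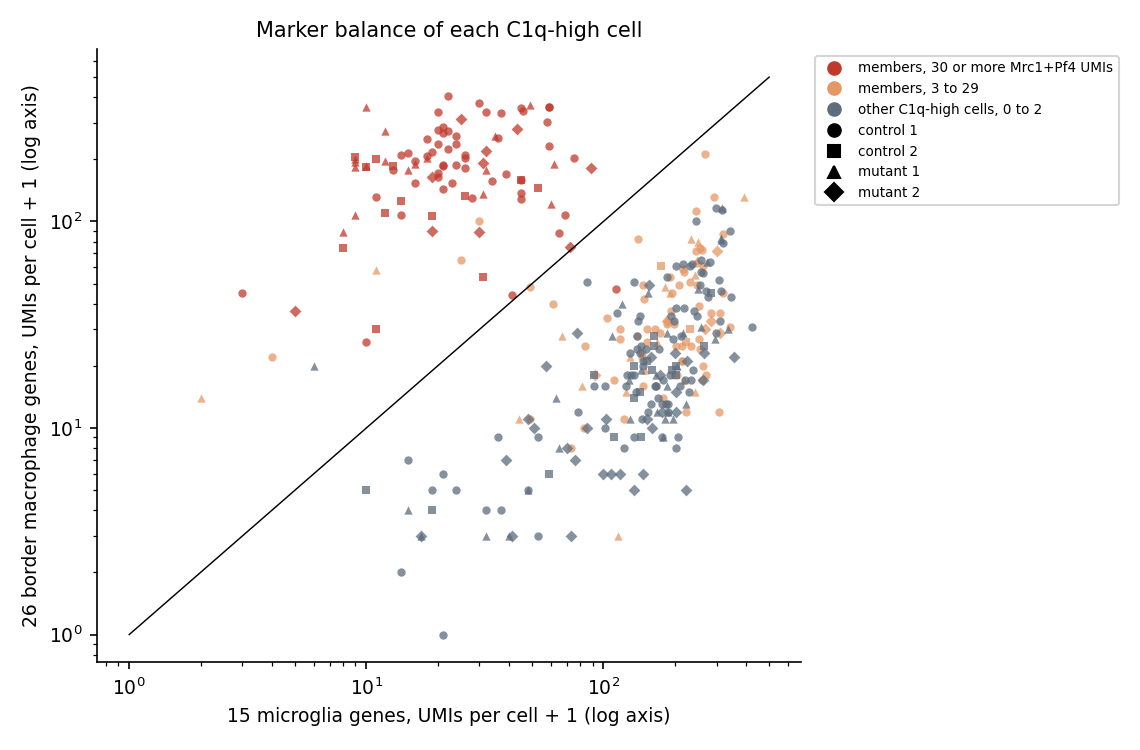
UMIs per cell from 15 microglia genes (x axis) against those from 26 border macrophage genes without *Mrc1* and *Pf4* (y axis), both on log scales of UMIs + 1, with colour for the *Mrc1* plus *Pf4* class, symbol for the library and a line of equal UMIs. Of the members with 30 or more UMIs, 93 of 94 lie above the line, and 5 of the 94 members with 3 to 29 do.

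Short stretches of promoter are shown for genes that were high in the high-*Mrc1/Pf4* members, since the macrophage factor PU.1, encoded by *Spi1*, binds DNA with the core GAGGAA. RefSeq promoters, running from 250 bases before to 50 bases after the start on GRCm38.p6, were matched by symbol for 21 of 28 border macrophage genes, 11 of 15 microglia genes and 27025 genes in all. The letters GAGGAA, searched on both strands, were in the promoters of 13 of the 21 border macrophage genes, 4 of the 11 microglia genes and 31.3% of all genes. The letters TGCTGA, part of the element bound by the factor *Maf* and also searched on both strands, were in 7, 3 and 21.7%. Of 13 matched genes shared by macrophages, 9 held GAGGAA and 5 held TGCTGA, larger shares than among the border macrophage genes (69.2% against 61.9%, and 38.5% against 33.3%). None of these counts was tested. Each stretch below is read 5′ to 3′ along the gene's strand, with the match in capitals (TTCCTC is the reverse complement of GAGGAA). It comes from chr2:14229222-14229251 (+) for *Mrc1*, chr5:90772415-90772444 (+) for *Pf4*, chr13:37050293-37050322 (−) for *F13a1* and chr14:31168654-31168683 (−) for *Stab1*. A match is a description of the sequence and not evidence of binding.
Mrc1: ctcctacacatgTTCCTCtctccccttcct
Pf4: tctgcagagcacTTCCTCatcctgtatcct
F13a1: ttgaagctacagGAGGAAgagaggataaga
Stab1: gctgatacgcagGAGGAAatcctggtgggt
The promoters of *Cd163* and *P2ry12* held neither set of letters.

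High-*Mrc1/Pf4* members carried uptake receptors in all 4 libraries, some at even levels and others not. *Mrc1* (chr2:14229392-14332057, + strand, GENCODE vM21 on GRCm38) stood at 4052, 3760, 3928 and 4273 CPM, against 461, 376, 436 and 398 in low-*Mrc1/Pf4* members and 50.6, 84.4, 40.7 and 63.0 in other C1q-high cells. *Lyve1* (chr7:110850607-110863239, − strand), which the rule did not count, stood at 1554, 1499, 1437 and 1901 CPM. It was near 0 in low-*Mrc1/Pf4* members (1.93, 0, 3.35 and 0 CPM) and had no UMI in other C1q-high cells. At least 1 *Lyve1* UMI was found in 82 of 94 high-*Mrc1/Pf4* members (87.2%), in 3 of 94 low-*Mrc1/Pf4* members and in 17 of 17265 passing cells with under 10 C1q UMIs (0.0985%), whose median depth was between 11505 and 11783 UMIs by library. *Lyve1* was nonetheless uneven from cell to cell, with quartiles of 3.62 and 26.8 UMIs per 10000 over the 94 cells.

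Among the other receptors, *Stab1*, a scavenger receptor for modified lipoproteins, stood at 1017, 1181, 1165 and 2068 CPM in high-*Mrc1/Pf4* members. It stood between 110 and 187 CPM in other C1q-high cells. *Dab2*, an adaptor for receptor uptake through clathrin, was the steadiest of these genes, at 3060, 3070, 2957 and 2950 CPM, a mean log2 difference from other C1q-high cells of 4.73 ± 0.22 (SD over n = 4 libraries, on log2(CPM + 10)). *Cd163*, the receptor for haemoglobin bound to haptoglobin, varied most, at 172, 418, 306 and 58.8 CPM. The mutant 2 value rested on 6 UMIs, 5 of them in 1 cell. Fatty acid and lipoprotein receptor *Cd36* (391, 572, 447 and 235 CPM) and folate receptor *Folr2* (343, 282, 403 and 372 CPM) were each below 50 CPM in every library of other C1q-high cells. Of the 15 scavenger receptor genes besides *Mrc1*, a gene of the rule, 10 lay above other C1q-high cells with no overlap of the 4 libraries, and *Lrp1*, which takes up apolipoprotein E, lay below (122, 127, 102 and 206 CPM against 376, 396, 457 and 517). *Marco* and *Cd209b* had no UMI in the members. Over all 9644 genes with at least 10 CPM in either group, 5.88% lay above and 5.3% below in this way, and the median log2 difference was −0.01.

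Of the 28 border macrophage genes, 24 lay above other C1q-high cells with no overlap, beside 5.88% of all genes. The list's median log2 difference was 3.55, or 3.40 without *Mrc1* and *Pf4*. Both genes of the rule are in the list, and it was drawn up with results of these data known. *Pf4* (chr5:90772435-90773383, + strand), a chemokine of platelets and macrophages, stood at 5485, 5922, 5001 and 5557 CPM and *F13a1*, the A subunit of clotting factor XIII, at 1922, 990, 1937 and 1294. *Ms4a7*, a membrane protein of macrophages, stood at 686, 845, 602 and 745 CPM. The C-type lectin genes *Clec10a*, *Mgl2* and *Cd209f* were higher in control 1 and mutant 1 than in control 2 and mutant 2. *Cd209f*, for example, stood at 354, 54.5, 112 and 78.4 CPM, and *Mgl2* at 159, 36.3, 262 and 19.6 CPM. *Cd209f* UMIs were found in 19, 2, 4 and 2 cells. *Cd209g*, *Pla2g2d*, *Cd209b* and *Igf1* were the 4 that overlapped.

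Some chemokine genes were higher in these cells and others lower, and their levels were uneven between libraries and cells. *Ccl2*, which attracts monocytes through *Ccr2*, stood at 5925, 1835, 2272 and 3793 CPM in high-*Mrc1/Pf4* members and at 129, 227, 371 and 121 CPM in other C1q-high cells. Over single cells its quartiles were 3.10 and 77.8 UMIs per 10000, and 13 of the 94 cells had none. *Ccl7*, a related monocyte chemokine, stood at 3038, 1381, 1277 and 2735 CPM and was detected in 41, 9, 12 and 4 cells. *Ccl24*, a ligand for *Ccr3*, stood at 875, 1417, 835 and 696 CPM. *Cxcl2*, which attracts neutrophils, stood at 656, 1017, 486 and 951 CPM, and 95.5% of its UMIs in control 2 and all of those in mutant 2 were in 1 cell each. The receptor *Ccr1*, which binds *Ccl7*, stood at 226, 327, 170 and 265 CPM. Over all genes 5.88% lay above and 5.3% below other C1q-high cells with no overlap. Of 19 chemokine and cytokine genes besides *Pf4*, a gene of the rule, 5 lay above and 3 below in this way. The 3 below were *Csf1*, the ligand of *Csf1r* (5.69, 0, 9.71 and 0 CPM against 203, 279, 318 and 202), *Ccl6* and *Il1a*.

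**Figure D3:**
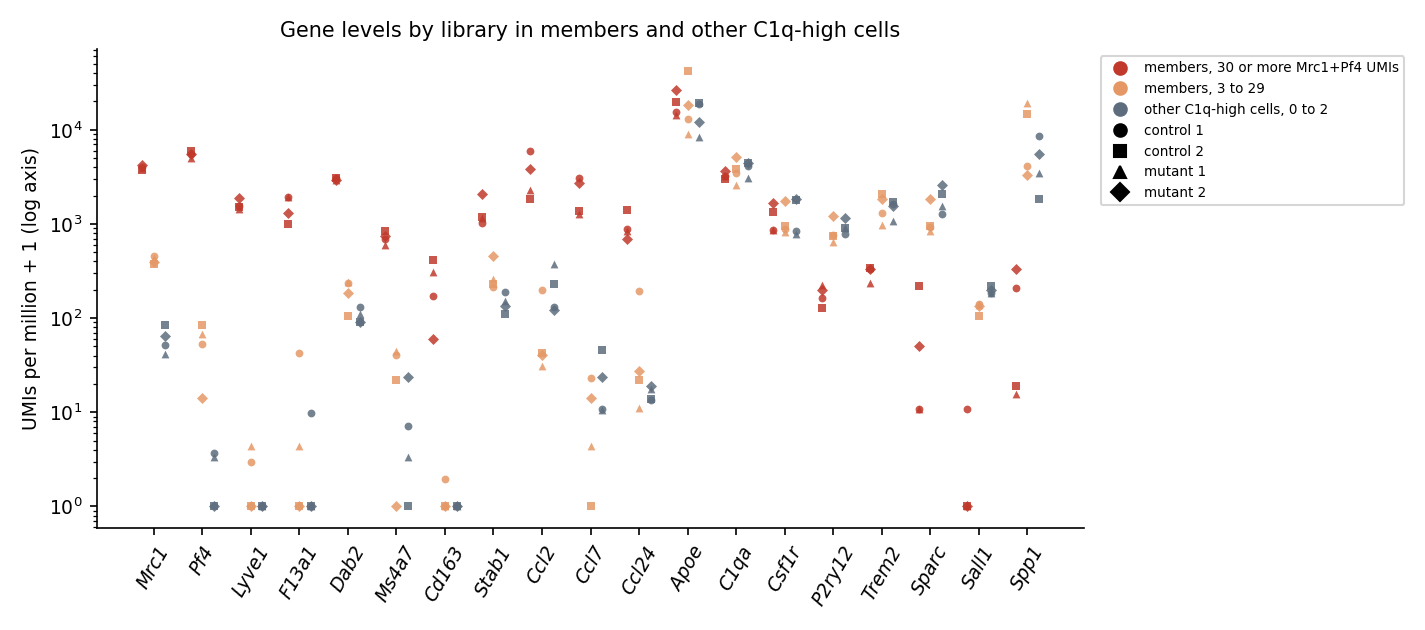
CPM + 1 (y axis, log scale) of 19 genes in high-*Mrc1/Pf4* members, low-*Mrc1/Pf4* members and other C1q-high cells, 1 point per library. *Lyve1* lies between 1437 and 1901 CPM in the high-*Mrc1/Pf4* members, and *P2ry12* lies between 127 and 223 CPM there and between 776 and 1160 CPM in other C1q-high cells.

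Iron and haem genes were also described by a list. *Slc40a1*, the iron exporter ferroportin, stood at 323, 227, 612 and 255 CPM in high-*Mrc1/Pf4* members and at 84.3, 156, 64.6 and 89.9 CPM in other C1q-high cells. *Hmox1*, which breaks down haem, stood at 310, 282, 578 and 245 CPM, and the biliverdin reductase *Blvrb* at 663, 772, 738 and 598 CPM. With *Blvra* and *Cd163* these made 5 of 11 iron-handling genes above other C1q-high cells with no overlap, beside 5.88% of all genes. *Hebp1*, a haem-binding protein, was the 1 gene below, beside 5.3% of all genes, and ferritin genes *Ftl1* and *Fth1* overlapped.

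Complement genes divided between those common to both kinds of cell and those of the high-*Mrc1/Pf4* members. *C1qa* stood at 3244, 2970, 3224 and 3666 CPM, overlapping other C1q-high cells (4099, 4458, 3044 and 4411 CPM). *Cfp*, which stabilises the alternative pathway convertase, stood at 102, 200, 165 and 147 CPM and had UMIs in 1 library of other C1q-high cells, at 4.50 CPM. *C2* and the anaphylatoxin receptor *C5ar1* also lay above with no overlap, among 4 of the 10 genes of the list that did. *C1qc*, a gene of the rule, lay below. Over all genes 5.88% lay above and 5.3% below in this way.

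Interferon-response genes were led by single cells in 2 libraries. Summed over 12 genes, they stood at 1033, 2761, 1690 and 706 CPM in high-*Mrc1/Pf4* members, and a single cell held 55.6% of these UMIs in control 2 and 35.3% in mutant 1. *Rsad2*, an antiviral enzyme, was at 4.27, 236, 223 and 9.80 CPM, and 1 cell held 92.3% of its UMIs in control 2 and 95.7% in mutant 1. *Bst2*, which tethers budding virus, was even, at 579, 645, 558 and 480 CPM against 170, 110, 144 and 166 CPM in other C1q-high cells. *Bst2*, *Ifitm3*, *Ifi204* and *Isg15* were the 4 genes of the list above other C1q-high cells with no overlap, beside 5.88% of all genes.

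Antigen presentation genes were scarce. *H2-Aa* and *H2-Ab1*, chains of the MHC class II protein I-A, had no UMI in high-*Mrc1/Pf4* members. The invariant chain *Cd74* stood at 49.8, 345, 29.1 and 68.6 CPM, and 36 of its 38 UMIs in control 2 were in 1 cell. At least 5 UMIs from the 7 MHC class II genes were found in 3 of the 94 cells, 1 of which also had *Lyve1*. *Ccr2*, the receptor of circulating monocytes, had no UMI in the 94 cells, which allows a share of up to 3.19% of cells with a UMI. *Ly6c2*, *S100a8*, *S100a9*, *Flt3*, *Xcr1* and *Cd3e*, which mark monocytes, neutrophils, dendritic cells and lymphocytes, had none either, and all 7 lymphocyte genes of the list were at 0. The monocyte list, led by *S100a4*, summed to 51.2, 99.9, 38.8 and 0 CPM, the neutrophil list, led by *Csf3r*, to at most 32.7 and the dendritic cell list, led by *Zbtb46*, to at most 36.3.

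Microglia genes were lower in high-*Mrc1/Pf4* members, in 15 of 15 genes with no overlap, beside 5.3% of all genes. The list's median log2 difference was −2.60. *Sparc*, a secreted matrix protein, stood at 9.96, 218, 9.71 and 49.0 CPM against 1275, 2096, 1563 and 2577 in other C1q-high cells. The purine receptor *P2ry12* was not absent, at 162, 127, 223 and 196 CPM against 776, 915, 914 and 1160, and 20 of the 94 cells had none of it. *Sall1*, a transcription factor of microglia, stood at 9.96, 0, 0 and 0 CPM against 184, 221, 182 and 198. *Fcrls*, an Fc receptor-like protein, differed least in the list, at 723, 763, 622 and 1196 CPM against 1354, 1811, 1240 and 2086.

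Outside the list, *Spp1*, the matrix protein osteopontin, stood at 206, 18.2, 14.6 and 333 CPM against 8661, 1824, 3466 and 5585 in other C1q-high cells. Few cells carried it in either set, since 76 of the 94 high-*Mrc1/Pf4* members and 125 of the 170 other C1q-high cells had no *Spp1* UMI, and the highest of the latter had 913 UMIs per 10000. *Lpl*, lipoprotein lipase, stood at 15.7, 99.9, 14.6 and 39.2 CPM against 438, 396, 397 and 517. *Ctsl* and *Cst3*, a lysosomal protease and a protease inhibitor, and the growth factor *Pdgfb* lay below with no overlap as well. *Cst3*, for example, stood at 1759, 3016, 1617 and 2078 CPM against 5410, 8683, 5672 and 7712.

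Genes shared by macrophages, summed over the 18 of the list, stood at 12199, 11908, 12134 and 12379 CPM in high-*Mrc1/Pf4* members and at 14930, 15180, 12106 and 14335 CPM in other C1q-high cells. No gene of that list lay above other C1q-high cells with no overlap and 4 lay below, the integrin *Itgam* by a mean log2 difference of −1.71 ± 0.38, the protease *Ctss* by −1.58 ± 0.17, the lysosomal membrane protein *Laptm5* by −0.90 ± 0.16 and the transcription factor *Irf8* by −0.74 ± 0.23 (SD, n = 4 libraries). *Spi1* stood at 414, 336, 403 and 412 CPM against 447, 331, 443 and 319. Of 14 macrophage transcription factor genes, *Maf* was the 1 above, at 2100, 2280, 3142 and 2490 CPM against 727, 1038, 775 and 692. *Sall1* and *Irf8* were the 2 below, and over all genes 5.88% lay above and 5.3% below in this way. *Apoe*, the main lipoprotein of the brain, was among the most abundant transcripts, at 15312, 19501, 14344 and 26512 CPM, and overlapped other C1q-high cells.

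Of 15 immediate early and stress genes, whose levels can rise during dissociation, *Klf6*, *Nfkbiz* and *Fosb* lay above other C1q-high cells with no overlap, and the list summed to 8053, 5395, 6948 and 6194 CPM in high-*Mrc1/Pf4* members. Of 14 growth factor and matrix genes 2 lay above and 5 below, where over all genes 5.88% lay above and 5.3% below. *Gas6*, a ligand of the receptors that clear dying cells, was the more abundant of the 2 above, at 637, 590.4, 660.4 and 735 CPM against 318, 234, 249 and 283. The matrix protease *Mmp9* was the other, at 17.1, 45.4, 58.3 and 9.80 CPM, with no UMI in other C1q-high cells.

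Of 15 cell cycle genes, 4 lay below other C1q-high cells with no overlap, where 5.3% of all genes did. These were *Top2a*, *Tpx2*, *Ccna2* and *Pclaf*, and no gene of the list lay above. The summed level was 892, 899, 588 and 1323 CPM in high-*Mrc1/Pf4* members and 1200, 1207, 1525 and 1700 CPM in other C1q-high cells, so the sums overlapped. In low-*Mrc1/Pf4* members it was 2184, 1815, 2083 and 1407 CPM. At least 10 such UMIs were found in 20 of the 94 high-*Mrc1/Pf4* and 43 of the 94 low-*Mrc1/Pf4* members, whose median depths differed, at 11970, 8406, 10363 and 11643 against 15374, 18684, 12093 and 11977 UMIs.

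Low-*Mrc1/Pf4* members resembled other C1q-high cells in most genes. The border macrophage list lay a median log2 of 0.15 above other C1q-high cells and the microglia list −0.22 from them, beside −0.06 over all genes, and 0.964% of genes lay above and 0.964% below with no overlap. In the lists, 3 of 28 border macrophage genes lay above (*Mrc1*, *Pf4* and *Stab1*) and 1 of 15 microglia genes below (*Sall1*). *Mrc1* and *Pf4* are the genes of the rule, which sets them higher in advance. Outside the rule, *Stab1* alone lay above, and the median of the border macrophage list includes both genes of the rule. *P2ry12* stood at 758, 751, 641 and 1221 CPM, overlapping other C1q-high cells. *Stab1* stood at 215, 230, 258 and 451 CPM against 187, 110, 151 and 135. *Dab2* stood at 233, 104, 238 and 186 CPM against 130, 90.9, 110 and 89.9, higher within each library but with ranges that overlapped. *Mki67*, a marker of cycling cells, stood at 211, 250, 168 and 226 CPM against 46.1, 169, 88.6 and 139, higher within each library, with ranges that overlapped. *Spp1* stood at 4159, 14857, 19154 and 3332 CPM, with from 70.4% to all of its UMIs in a single cell of each library. Control 2 and mutant 2 contributed only 3 and 6 of these cells.

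RNA of other cell types was present at levels that differed by library and list. Lists for neurons, astrocytes, the oligodendrocyte lineage, endothelial cells, mural cells, fibroblasts and choroid plexus took at least 1% of UMIs in 5 members, 1 of them high-*Mrc1/Pf4*. In high-*Mrc1/Pf4* members the 11 neuron genes, led by *Map2*, summed to 886, 18.2, 452 and 68.6 CPM, against 2377, 1062, 2129 and 981 CPM in passing cells with under 10 C1q UMIs. The 9 astrocyte genes, led by *Fabp7*, summed to 519, 636, 612 and 1098 CPM, against 13527, 16359, 11808 and 15025 CPM in those cells. The 9 oligodendrocyte lineage genes, led by *Ptprz1*, summed to 437, 182, 937 and 470.5 CPM, against 4186, 5301, 4625 and 4551 CPM. Endothelial, fibroblast, choroid plexus and erythroid lists each summed to 36.3 CPM or less in every library, and mural cell genes to 1.42, 518, 4.86 and 9.80 CPM, against 147, 1123, 249 and 1417 CPM in those cells. *Rgs5*, a pericyte gene that led the mural list, had 47 UMIs in control 2, all in 1 cell. The fibroblast genes *Col1a1*, *Dcn* and *Lum*, the choroid plexus genes *Kl*, *Clic6* and *Kcne2* and the endothelial gene *Tek* were at 0 in high-*Mrc1/Pf4* members. No doublet caller was run.

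Whether the group's size differed with genotype was asked next. Members made up 2.07%, 0.538%, 0.671% and 0.488% of passing cells. Control 1 stood above the other three libraries, which overlapped within their intervals. The mean was 1.30 ± 1.08% in controls and 0.580 ± 0.130% in mutants (SD, n = 2), and an exact two-sided permutation test gave p = 0.667, where the smallest p that 2 against 2 allows is 0.333. Within replicate 1 the mutant minus the control was −1.40 percentage points, and within replicate 2 it was −0.0505 points. Without control 1, which leaves replicate 1 with no control, the difference of −0.72 points became 0.04. High-*Mrc1/Pf4* members made up 0.928%, 0.437%, 0.318% and 0.305%, so that both controls lay above both mutants (exact permutation p = 0.333). A sort, with its own losses, lies between the tissue and these shares.

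Among C1q-high cells, members made up 57.3%, 47.1%, 53.5% and 34.0%, a difference of −8.39 percentage points between the means (exact permutation p = 0.667, n = 2 per genotype). The mutant minus the control was −3.76 points within replicate 1 and −13.02 points within replicate 2. Without mutant 2, which leaves replicate 2 with no mutant, the difference was 1.35 points, and with a mitochondrial limit of 5% it was −19.1 points. High-*Mrc1/Pf4* members made up 25.7%, 38.2%, 25.4% and 21.3%. After each cell was thinned to 2000 UMIs, *Lyve1* was seen in 31.4%, 62.5%, 34.2% and 43.8% of members (41.5%, 68.8%, 44.7% and 50.0% without thinning). High-*Mrc1/Pf4* cells themselves made up 44.9%, 81.3%, 47.4% and 62.5% of members, in the same order of libraries, and among them *Lyve1* was seen in 69.8%, 76.9%, 72.2% and 70.0% after thinning. No difference was detected in 5 such shares (exact permutation tests, adjusted p = 1 for *Lyve1*, *Cd163*, MHC class II, *Ccr2* and cell cycle genes alike), in a design that could not reach 0.05. The MHC class II share differed by −7.56 points, with −8.88 and −6.25 within replicates 1 and 2. The cell cycle share (3 or more UMIs) differed by −5.73 points, with −5.22 and −6.25 within replicates. Both controls lay above both mutants for it (exact permutation p = 0.333 before adjustment).

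**Figure D4:**
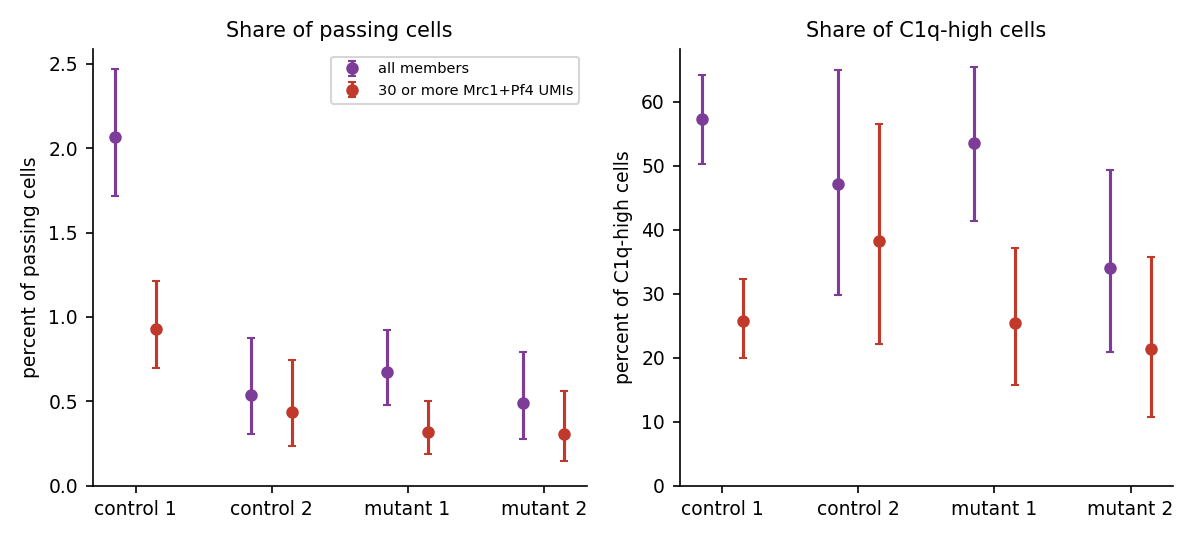
Percent of passing cells (left) and of C1q-high cells (right) that were members, by library, for all members and for those with 30 or more *Mrc1* plus *Pf4* UMIs. Bars are 95% exact binomial intervals for counting error, and control 1 at 2.07% of passing cells is the library that stands apart.

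Gene levels were then compared between genotypes over the 188 members, summed by library. No gene of 5837 tested passed an adjusted p of 0.05 in edgeR's quasi-likelihood test (0% called), and 12 had an unadjusted p under 0.05 (0.206%). DESeq2 called 0 genes as well, with 10 at an unadjusted p under 0.05. Without a filter on low counts, edgeR called 2 genes higher (0.0116% of 17240) and 6 lower (0.0348%) in mutants. *Chd8* (chromatin remodeller, floxed in the mutants) had 78, 5, 28 and 12 UMIs, or 44.9, 31.6, 55.6 and 67.7 CPM, so the mutants' values lay above the controls' and its log2 change was 0.58 ± 0.46 (SE, n = 2 per genotype, edgeR adjusted p = 1). Reads from the 3′ end of transcripts do not show whether the floxed exons are present, so this value does not check the labels.

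Among genes with the smallest unadjusted p and 1 direction in both replicates, none of which was called in this fit, *Ier3* had the most UMIs. *Ier3*, an early response gene, stood at 761, 829, 429 and 423 CPM, lower in the mutant of each replicate pair, with a log2 change of −0.94 ± 0.31 (SE). In control 2 a single cell held 67 of its 131 UMIs (51.1%), so the replicate 2 difference leaned on that cell. The top cell held 8.62% in control 1, 17.1% in mutant 1 and 26.7% in mutant 2. The *Ier3* difference without the control 2 cell was not tested. *Rrm2* and *Slbp*, which serve DNA replication and histone mRNA, *Pfkfb3*, a regulator of glycolysis, and *B930036N10Rik* were the other lower genes, with log2 values from −2.99 to −1.14. *Rrm2* rested on 91, 8, 11 and 2 UMIs. *Cntn1*, *Pdgfra*, *Bola2*, *Vezf1* and *Ap5m1* were the higher ones, with log2 values from 1.30 to 2.41. In this fit, without a replicate block, the edgeR adjusted p was 1 for all 10.

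**Figure D5:**
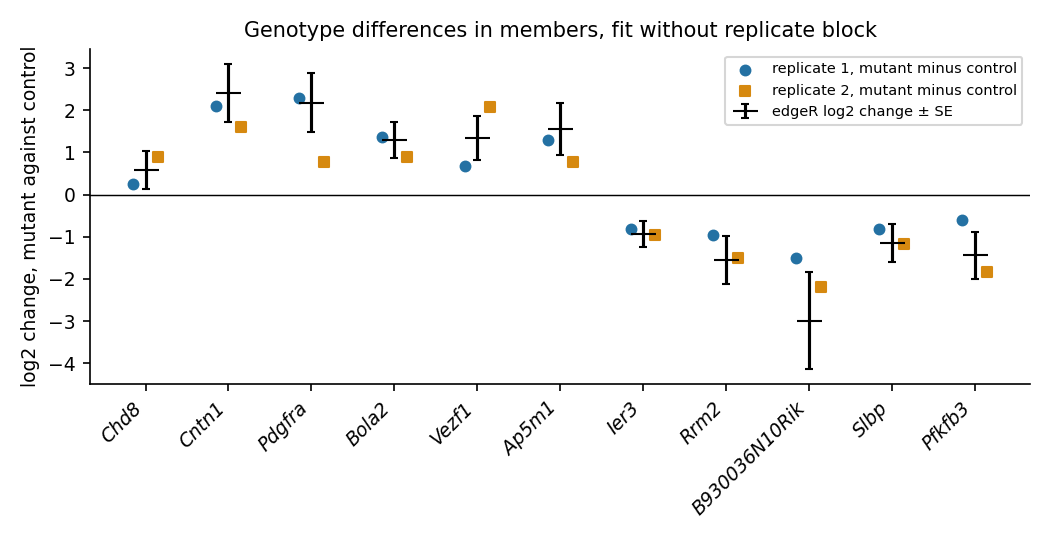
Log2 change of mutant against control (y axis) for *Chd8* and the 10 genes named by the smallest unadjusted p, with the edgeR estimate ± SE and the difference within each replicate pair on log2(CPM + 10). The replicates of *Ier3* lie at −0.81 and −0.95, and 1 cell held 51.1% of its control 2 UMIs. No gene shown was called in this fit, while *Cntn1*, *Pdgfra*, *Ier3* and *B930036N10Rik* were called with the replicate block.

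*Pdgfra*, the receptor that marks oligodendrocyte progenitors, had 39, 3, 75 and 7 UMIs, and a single cell held 25 of the 39 in control 1, 36 of the 75 in mutant 1 and 6 of the 7 in mutant 2. With the replicate number as a block, 13 genes were called higher (0.223%) and 2 lower (0.0343%) in mutants, both by edgeR. The lower ones were *Ier3* (adjusted p = 0.0225) and *B930036N10Rik* (adjusted p = 0.0290, with 51, 18, 2 and 3 UMIs). The higher genes included *Lhfpl3*, *Csmd3*, *Pdgfra*, *Pcdh15*, *Cntn1*, *Lrp1b*, *Dscam*, *Lsamp* and *Sox6*, which neurons or oligodendrocyte progenitors carry, and the chemokine *Cxcl10*, whose 66, 2, 97 and 0 UMIs were higher in the mutant of replicate 1 and lower in that of replicate 2. *Lhfpl3* had 131, 0, 177 and 2 UMIs, and *Pcdh15* 71, 0, 100 and 0, so these calls rested on replicate 1. *Csmd3*, *Pcdh15* and *Lrp1b*, all long genes, were at 0 in both replicate 2 libraries, and the part of software version in this was not tested. Oligodendrocyte lineage genes summed to 813, 177, 817 and 333 CPM over the members and neuron genes to 527, 12.7, 601 and 45.1 CPM, higher in replicate 1 for both lists. Their part in these calls was not tested. Without the 5 members rich in other cells' RNA the block gave 6 higher and 0 lower genes, and 5 of the 6 were among the 15. In high-*Mrc1/Pf4* members alone (0 of 3215 genes called by edgeR without the block, 15 at an unadjusted p under 0.05) it called 0 higher genes and 1 lower, *Ccl4*, which had 649, 45, 2 and 7 UMIs there. *Ier3* was the lower call among the 15 with UMIs in every library above 50, but 1 cell held 51.1% of those in control 2.

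Lists of genes gave no genotype call in edgeR without the block. Of the 22 border macrophage genes tested, 9 had a log2 change above 0, with a median of −0.06, and of the 15 microglia genes 11 did, with a median of 0.37, beside 49.1% of all genes and a median of −0.01. Within high-*Mrc1/Pf4* members the medians were 0.08 over 22 border macrophage genes, 15 of them above 0, and 0.24 over 7 microglia genes. Of 12 scavenger receptor genes 4 lay above 0 (median −0.08), of 16 chemokine and cytokine genes 5 (−0.15), and of 6 interferon-response genes 0 (−0.78). In high-*Mrc1/Pf4* members 8 of 12 scavenger receptor genes lay above 0 (0.05), 2 of 12 chemokine and cytokine genes (−0.26) and 1 of 5 interferon-response genes (−0.54), so the scavenger receptor median changed sign. With the replicate block 11 of 22 border macrophage genes lay above 0 (median 0.0017), 11 of 15 microglia genes (0.28), 6 of 12 scavenger receptor genes (−0.01), 5 of 16 chemokine and cytokine genes (−0.24) and 1 of 6 interferon-response genes (−0.42). Mixtures of high-*Mrc1/Pf4* and low-*Mrc1/Pf4* cells differed between libraries, and their part in these medians was not tested.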

How the data were processed

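The authors sorted tdTomato-positive telencephalon cells, prepared 10x Genomics 3′ libraries and deposited raw UMI counts per gene and barcode on mm10; the submitters' notes name Cell Ranger 3.0, and the matrix headers 7.0.0 and 5.0.1. No deposited cell annotation was used. Members were taken by the stated thresholds, and counts were summed per library and scaled to CPM. Members and gene lists (25) were chosen with earlier results of these data known. Genotype was tested with edgeR 4.0.16 (quasi-likelihood, TMM, filterByExpr, Benjamini-Hochberg adjustment, R 4.3.3), and DESeq2 1.42.0 was an alternative. Shares were compared by exact permutation over libraries. On simulated counts for the genotype comparison, 74.5% of the 4-fold changed genes were recovered, with 3 false calls (70.7% and 2 with the block). The simulation gave all genes the same fixed spread and no difference between replicates. These shares therefore do not give the recovery to be had in the real libraries. Genotype genes were named as up to 5 per direction with the smallest unadjusted p and the same sign in both replicates, since fewer than 10 passed. Genes against other C1q-high cells were named by the largest mean difference of log2(CPM + 10), same sign in 4 libraries and at least 100 CPM in the higher group; list genes and the most abundant genes could also be named. Same-numbered libraries share a software version, and their replicate differences correlated across 5837 genes (Pearson r = 0.65), so the block is given beside the calls. Gene positions are from GENCODE vM21, which matched 99.6% of 32285 genes. Python 3.11.15 was used elsewhere. 9 barcodes that met the marker thresholds failed the quality filters. Values of a few genes in the lists are not reported here.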

Additional observations from a re-analysis of the deposited data

Results flagged for a closer look

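Barcodes outside the quality filters also carried the marker pattern: 9 met both marker thresholds, at 6, 1, 2 and 0 in control 1, control 2, mutant 1 and mutant 2, with a median of 1618 UMIs, and they enter no comparison. Groups of 2 libraries were too small for a check of single outlying libraries.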

How the results depend on the processing

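No genotype call was made in 9 of the 16 alternatives run, DESeq2, other scaling and stricter marker or mitochondrial limits among them. Without the filter on low counts 8 genes were called, with the replicate block 15, with the block in members of 30 or more *Mrc1* plus *Pf4* UMIs 1, and with the block without members rich in other cells' RNA 6. Leaving out 1 library gave from 0 to 38 calls, with 3 without control 1, 4 without control 2, 38 without mutant 1 and 0 without mutant 2, where the lone library of a genotype was assumed to vary like the other genotype's. The cause was not tested. *Chd8* stayed above 0 and uncalled in 14 of 14 alternatives, and of 122 alternatives for the 10 named genes 118 kept their direction and stayed uncalled, and 4 became calls, all with the block.

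Shares changed sign more readily. Leaving out 1 library moved the share of passing cells from −1.49 to 0.0414 points, the share of C1q-high cells from −18.1 to 1.35 points the *Lyve1* share from −23.5 to 7.62 points and the *Cd163* share from −21.6 to −0.505 points. Leaving out a library also leaves its replicate pair incomplete. The difference in the share of C1q-high cells grew from −8.39 to −19.1 points and that in the *Cd163* share from −11.0 to −16.7 points with a mitochondrial limit of 5%, and the latter to −23.2 points without thinning. With that mitochondrial limit the MHC class II share turned from −7.56 to 0.526 points and the cell cycle share from −5.73 to 5.19 points. Without thinning they turned to 1.56 and 7.25 points, and the *Ccr2* share turned from −0.424 to 2.70 points. Against other C1q-high cells, the median log2 difference over all members was 2.73 for the 28 border macrophage genes and −1.10 for the microglia list. Without *Mrc1* and *Pf4*, that of the border macrophage list was 3.85 with a pseudocount of 1 CPM. It was 3.40 in members with 30 or more and 0.14 in those with 3 to 29, and that of the microglia list −2.60 and −0.22. Divisions at 30 and fits restricted by them, and the block without members rich in other cells' RNA, were chosen after seeing the data. The 16 members each of control 2 and mutant 2, with 158018 and 177360 UMIs in all, limit every genotype comparison.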

Other observations

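Several high values belonged to single members. *Retnla*, a secreted protein of alternatively activated macrophages, had 396 UMIs in mutant 1, all in 1 high-*Mrc1/Pf4* cell, against 1, 0 and 0 in control 1, control 2 and mutant 2. *Igf2* had 1, 18, 0 and 0 UMIs, 17 of them in 1 cell. These were among the 8 genes that edgeR called when low counts were not filtered. *Il10*, an anti-inflammatory cytokine, was spread more widely, with UMIs in 26, 0, 4 and 1 high-*Mrc1/Pf4* members. *Il1b*, which drives inflammation, had 95, 3, 46 and 0 UMIs in 9, 3, 2 and 0 of them.

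Mitochondrial *mt-Atp8* had 29, 120, 23 and 10 UMIs, highest in control 2, where it was seen in 15 of 16 members and where the median mitochondrial share was 5.18%, against 2.07%, 2.31% and 3.76% in the other three libraries.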
